A study of Mus musculus with 6 samples.

Results

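Gbp and Irg genes encode guanylate-binding proteins (GBPs) and immunity-related GTPases (IRGs), and 10 of them are described here in neutrophils of the mouse dura mater, the tough outermost meningeal membrane. The set was chosen by gene name, with earlier results of these data known. Its members were Gbp2, Gbp3, Gbp4, Gbp5, Gbp6, Gbp7, Gbp8, Gbp9, Irgm1 and Igtp. All 10 were matched by symbol among the 21955 genes counted, and all 10 passed the filter on low counts, which kept 11903 genes. Poly-A RNA was sequenced from neutrophils of WT (wild-type) mice that had been exposed to social threat, with 3 male-labelled libraries and 3 labelled female. The labels describe no unexposed group, and they give neither strain nor age. They do not say whether the 3 libraries of a group came from separate animals or from pooled ones, so the p-values rest on library-to-library spread that may be only technical. The study's stated aim was to compare the sexes after the exposure, and the only comparison possible is between the labelled groups.

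GBPs are large GTPases of the dynamin superfamily that assemble on the membranes of vacuoles and on bacteria inside cells. IRGs are smaller GTPases that act on the same compartments. Both families are induced by interferon gamma and, more weakly, by type I interferons. Irgm1 and Igtp (also called Irgm3) are regulatory IRGs, which keep effector IRGs inactive on the cell's own membranes. In the mouse the Gbp genes lie in a cluster on chromosome 3 and another on chromosome 5, and most Irg genes lie on chromosome 11.

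Total counts per library ran from 17098026 to 20778410, of which 3514 to 4599 fell on the 10 members. Genes of the Y chromosome went against the label female: the sum of Ddx3y, Eif2s3y, Kdm5d and Uty was 307 to 318 CPM (counts scaled to 1000000 per library) in the male-labelled libraries and 312 to 328 CPM in the female-labelled ones. Groups are therefore named by their labels, and a direction between them is not a measured difference between the sexes. Neutrophil markers were abundant (11 of 12 listed genes matched, 54077 to 59696 CPM in sum in the male-labelled libraries and 60609 to 78029 CPM in the female-labelled ones), and 8 of the 11 were higher in the latter. Genes of other cells were present too, and their levels are given beside the results. Of all genes tested, edgeR called 13.9% at an adjusted p under 0.05, namely 868 higher and 788 lower in the female-labelled group. Leaving out female replicate 3 raised these to 1439 and 1269, leaving out male replicate 1, 2 or 3 cut them to 439 to 503 and 467 to 522, and leaving out female replicate 2 gave 521 lower.

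Promoters of interferon-induced genes often carry a pair of short motifs. The interferon-stimulated response element (ISRE) is bound by IRF proteins, IRF9 with STAT2 among them, and the gamma-activated site (GAS) takes part in the response to interferon gamma. Sequences came from RefSeq for build GRCm38.p6, as 250 bases before to 50 bases after each annotated start, and 6 of the 10 members had an entry. Gbp4, Gbp6, Gbp8 and Gbp9 had none. The ISRE core was searched as GAAA, any 2 bases and GAAA again, and the GAS as TTC, any 3 bases and GAA, on both strands, with overlapping matches counted separately. The stretches below end 1 base before the annotated start, read 5′ to 3′ along the gene, and carry both motifs in capitals. They set the genes that were lower in the female-labelled group, Irgm1 and Igtp, beside the 4 Gbp genes that did not pass the test.
Irgm1: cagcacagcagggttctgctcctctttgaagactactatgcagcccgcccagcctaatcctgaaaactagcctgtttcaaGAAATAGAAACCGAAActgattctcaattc
Igtp: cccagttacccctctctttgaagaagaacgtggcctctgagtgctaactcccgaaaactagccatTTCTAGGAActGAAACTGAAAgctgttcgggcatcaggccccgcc
Gbp2: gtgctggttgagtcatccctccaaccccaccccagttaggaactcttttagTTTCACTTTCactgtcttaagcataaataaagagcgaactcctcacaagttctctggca
Gbp3: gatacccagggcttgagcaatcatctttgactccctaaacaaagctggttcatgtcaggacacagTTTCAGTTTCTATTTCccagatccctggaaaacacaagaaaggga
Gbp7: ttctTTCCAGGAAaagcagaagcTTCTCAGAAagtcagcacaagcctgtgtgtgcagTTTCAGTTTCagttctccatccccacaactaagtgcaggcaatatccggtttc
Gbp5: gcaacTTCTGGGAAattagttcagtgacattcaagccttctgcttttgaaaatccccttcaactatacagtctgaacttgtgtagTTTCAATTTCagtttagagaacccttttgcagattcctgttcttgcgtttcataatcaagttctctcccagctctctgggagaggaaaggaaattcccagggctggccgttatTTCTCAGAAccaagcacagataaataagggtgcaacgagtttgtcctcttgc
Their positions are chr11:48871421-48871530 on the minus strand, and chr11:58199446-58199555, chr3:142620553-142620662, chr3:142559934-142560043, chr3:142530226-142530335 and chr3:142496684-142496933 on the plus strand. The stretch of Gbp3 belongs to the first of its 2 annotated starts, and the promoter of the other start held no match.

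At least 1 ISRE core stood in a promoter of all 6 members with an entry. It stood in 3.99% of the 9430 tested genes with an entry, and in 3.44% of the 32851 promoters in the table. Counted from the start, the match began at -59 in Gbp2, -53 in Gbp7, -34 in Igtp and -165 in Gbp5. Gbp3 and Irgm1 each held a pair of overlapping cores, at -45 and -39 and at -30 and -24. The GAS letters stood in Gbp5, Gbp7 and Igtp, against 8.45% of the tested genes with an entry and 8.3% of all promoters. In Gbp7 they lay upstream of the ISRE core, at -106 and -87, and in Igtp at -45, with 2 bases between the motifs. In Gbp5 they lay on both sides of it, at -245 and -52. Members that were lower and members that did not pass the test thus both had ISRE letters in this window. Among all tested genes with a promoter entry, the ISRE core stood in 9.43% of 615 genes called lower, 2.93% of 682 called higher and 3.66% of 8133 not called. For the GAS letters the shares of the same genes were 9.76%, 6.6% and 8.51%. A link between either motif and the calls was not tested.

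**Figure D1:**
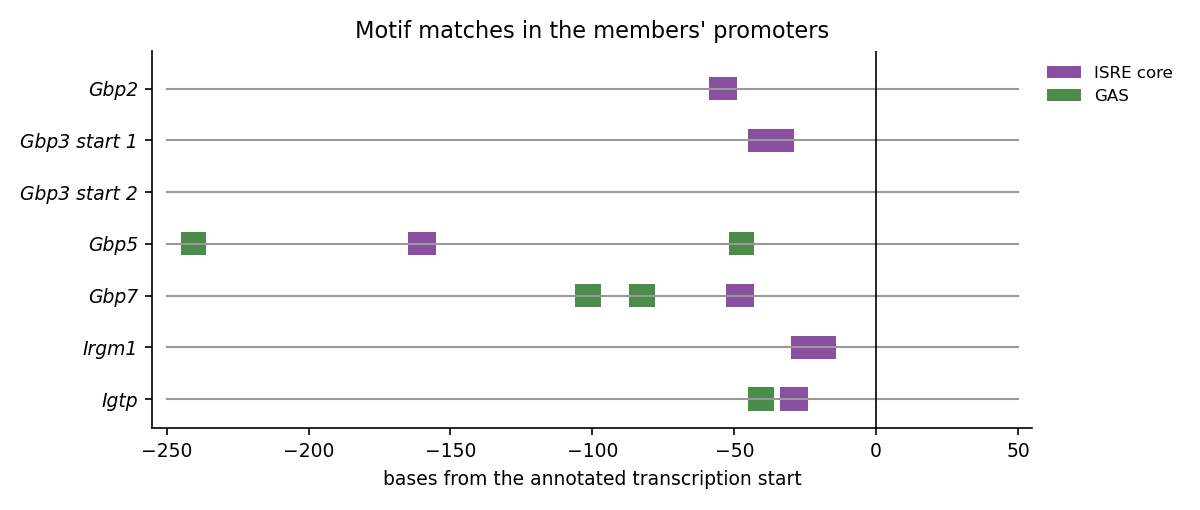
Positions of motif matches in the promoters of the 6 members with an entry, in bases from the annotated start (x axis, 250 before to 50 after), with 1 line per annotated start. Purple boxes are ISRE cores and green boxes GAS matches; all but the line for the other start of Gbp3 carry an ISRE core, and 3 genes carry GAS letters.

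Of the 10 members, 6 were lower in the female-labelled libraries and none was higher, by edgeR, by DESeq2 and by limma-voom, with none higher at an unadjusted p under 0.05 either. Over all genes tested, 6.62% were called lower and 7.29% higher. Since the members were chosen with earlier results known, these shares are set beside them without a test. Among the 10 members, the calls split by chromosome. All 4 members of the chromosome 5 cluster and both members on chromosome 11 were lower, while none of the 4 on chromosome 3 passed the test by edgeR, by DESeq2 or by limma-voom, or at an unadjusted p under 0.05. A difference between the chromosomes was not tested. Igtp on chromosome 11 (log2 -0.35, SE 0.10) and Gbp2 on chromosome 3 (-0.26, SE 0.12) had similar changes, although only Igtp passed. The call of Igtp was lost without male replicate 1, male replicate 2 or female replicate 2. Of other interferon-inducible GTPases tested on chromosome 11, Ifi47 and Tgtp2 were lower, but Irgm2 did not pass (log2 -0.28, adjusted p = 0.142 by edgeR). The median log2 fold change of the 10 members was -0.51, against 0.00 over all genes tested. In 6 of the 10 the female-labelled libraries lay below all of the male-labelled ones, a pattern seen in 15% of all genes tested, while 15.9% lay wholly above and 30.9% did not overlap in either direction. The values that follow are CPM after TMM normalization, a scaling that sets the bulk of genes equal between libraries. In bulk RNA, fewer cells of a type and less RNA per cell cannot be told apart. Markers of B cells and dendritic cells were lower in the same libraries: their summed CPM was 248 to 307 and 304 to 321 in the male-labelled libraries and 149 to 210 and 210 to 216 in the female-labelled ones, and their part in the result was not tested.

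**Figure D2:**
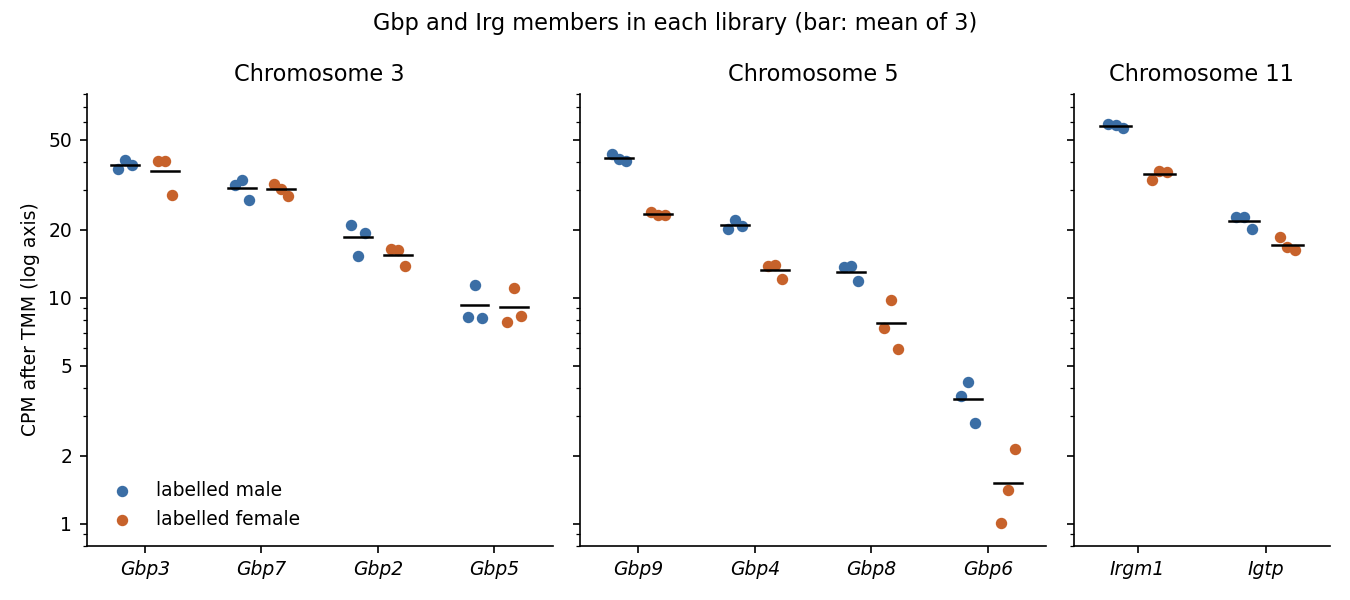
CPM of each member (y axis, log scale) in the 3 male-labelled libraries (blue) and the 3 labelled female (orange), by chromosome, with the mean of each group as a bar. On chromosomes 5 and 11 the groups do not overlap for any member, and on chromosome 3 they overlap for all 4.

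The chromosome 5 cluster held the 3 largest decreases. Gbp9 (ENSMUSG00000029298), whose protein gathers at parasite vacuoles, had 43.0, 41.2 and 40.2 CPM in the male-labelled libraries and 23.9, 23.2 and 23.2 CPM in the female-labelled ones. The groups lay far apart, with little spread within either, and the change was -0.82 on the log2 scale (SE 0.080, adjusted p = 3.98e-07 by edgeR), a 1.77-fold difference. Gbp4 (ENSMUSG00000079363) had 20.1, 21.96 and 20.8 CPM against 13.8, 14.0 and 12.1 CPM. It was lower in all 3 female-labelled libraries, with a change of -0.66 (SE 0.11, adjusted p = 0.000253 by edgeR).

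Gbp8 (ENSMUSG00000034438) varied more, with 13.6, 13.7 and 11.8 CPM in the male-labelled libraries and 7.35, 9.78 and 5.95 CPM in the female-labelled ones. The highest of the latter still lay below the lowest of the former, and the change was -0.76 (SE 0.16, adjusted p = 0.00248 by edgeR). Gbp6 (ENSMUSG00000104713), whose product takes part in defence against bacteria inside cells, was the scarcest member, with 47 to 74 counts per library labelled male and 19 to 43 per library labelled female. Its levels were 3.67, 4.22 and 2.80 CPM against 1.01, 1.41 and 2.13 CPM. The change of -1.22 was the largest of the 10 and also the least precise (SE 0.29, 95% interval -1.84 to -0.61, adjusted p = 0.00784 by edgeR). Without male replicate 2 it was -1.09 with adjusted p = 0.0509 by edgeR. Of the 100-base stretches of Gbp6 transcripts in GENCODE M21, 64.5% also occur in transcripts of another gene, most of them in Gm43302, a gene model whose exons overlap it. Gm43302 was listed at 0 in all 6 libraries. For Gbp4, Gbp8 and Gbp9 the shared part was 1.64%, 4.39% and 1.65%.

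On chromosome 3 the levels of the groups overlapped for every member. Gbp3 (ENSMUSG00000028268) had 37.1, 40.6 and 38.8 CPM in the male-labelled libraries and 40.2, 40.4 and 28.4 CPM in the female-labelled ones. Female replicate 3 stood below the other 5 libraries. The change was -0.10 (95% interval -0.32 to 0.12) with it and 0.06 without it. Gbp7 (ENSMUSG00000040253), which helps to assemble the NADPH oxidase at vacuoles, had 31.4, 33.1 and 26.9 CPM against 32.0, 30.3 and 28.3 CPM. Its change was -0.02 (95% interval -0.21 to 0.18), and turned to 0.01, 0.05 and 0.03 without male replicate 1, male replicate 2 and female replicate 3. The interval excludes a difference as large as that of Gbp9.

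Gbp2 (ENSMUSG00000028270), a lipid-anchored protein that targets vacuoles and bacteria, had 20.9, 15.3 and 19.4 CPM in the male-labelled libraries and 16.4, 16.3 and 13.7 CPM in the female-labelled ones. Male replicate 2 fell inside the range of the other group, and the change was -0.26 (95% interval -0.52 to 0.0012, adjusted p = 0.183 by edgeR). It was -0.16 (adjusted p = 0.51 by edgeR) without male replicate 1 and -0.38 (0.071) without male replicate 2, and passed in neither case. Gbp5 (ENSMUSG00000105504), which promotes assembly of the NLRP3 inflammasome, had 8.25, 11.35 and 8.16 CPM against 7.83, 10.99 and 8.33 CPM. Replicate 2 was the high library in both groups, and the change was -0.03 (95% interval -0.38 to 0.31), which turned to 0.14, 0.06 and 0.03 without male replicate 2, female replicate 1 and female replicate 3. The interval of Gbp5 is thus the widest of the 4. Of Gbp7 stretches of 100 bases, 10.01% occur in another gene. For Gbp2, Gbp3 and Gbp5 it was at most 0.69%.

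The summed level of the 4 members on chromosome 5 was 80.4, 81.2 and 75.6 CPM in the male-labelled libraries and 46.0, 48.4 and 43.3 CPM in the female-labelled ones. That of the 4 on chromosome 3 was 97.7, 100.3 and 93.2 CPM against 96.3, 98.1 and 78.7 CPM. The ratio of the former sum to the latter was 0.823, 0.809 and 0.811 in the male-labelled libraries, and 0.478, 0.493 and 0.551 in the female-labelled ones. It did not overlap between the groups, which for single genes held in 30.9% of all tested, in either direction. Since the ratio sets members that were lower over members that did not pass, it restates those calls. For a single pair, the most abundant member of each cluster per length, Gbp9 over Gbp3 was 1.16, 1.02 and 1.04 against 0.596, 0.575 and 0.818. The log2 ratio differed by -0.71 (0.10 ± 0.10 in the male-labelled libraries, -0.61 ± 0.28 in the female-labelled ones, SD, n = 3; two-sided exact permutation p = 0.1, which is the lowest possible with 3 libraries a group). This pair was chosen after the values were seen.

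Both members on chromosome 11, which are regulatory IRGs, were lower in the female-labelled libraries. Irgm1 (ENSMUSG00000046879), which is also known to act in autophagy and in the survival of blood-forming cells, had the highest CPM of the 10 members in the 3 male-labelled libraries and in female replicate 3, while Gbp3 was higher in female replicates 1 and 2. It had 58.5, 58.0 and 56.5 CPM against 33.1, 36.2 and 36.1 CPM, and the change was -0.71 (SE 0.072, adjusted p = 6.75e-07 by edgeR). Igtp (ENSMUSG00000078853) had 22.7, 22.8 and 20.2 CPM against 18.5, 16.8 and 16.2 CPM. The groups did not overlap, but came close to each other, and the change was -0.35 (SE 0.10, adjusted p = 0.0258 by edgeR). This call was lost without male replicate 1 (adjusted p = 0.0928 by edgeR), male replicate 2 (0.105) or female replicate 2 (0.0934), with changes from -0.34 to -0.32. The ratio of Irgm1 to Igtp was 2.58, 2.54 and 2.80 in the male-labelled libraries and 1.79, 2.16 and 2.23 in the female-labelled ones. On the log2 scale it differed by -0.36 (1.40 ± 0.074 against 1.03 ± 0.17, SD, n = 3; two-sided exact permutation p = 0.1, again the lowest possible). No 100-base stretch of Irgm1 transcripts occurs in another gene, and 5.16% of those of Igtp occur in its neighbour Irgm2, with which it shares 162 exonic bases.

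Per length, Gbp3 led and Gbp6 came last in both groups, while Irgm1 and Gbp9 stood lower in the order of the female-labelled libraries. Levels here are CPM per kilobase of exon, with exons merged over all GENCODE M21 transcripts of a gene, so a gene with long, rarely used exons reads low. In the male-labelled libraries Gbp3 led with 11.9 ± 0.53 (SD, n = 3), followed by Igtp (10.8 ± 0.73) and Irgm1 (9.92 ± 0.18). Gbp9 (8.02 ± 0.28) and Gbp2 (7.36 ± 1.2) came next, then Gbp7 (5.43 ± 0.57), Gbp8 (3.79 ± 0.32), Gbp4 (2.79 ± 0.13), Gbp5 (1.39 ± 0.27) and Gbp6 (0.599 ± 0.12). Among these neighbours Igtp and Irgm1 overlapped in their libraries, as did Gbp9 and Gbp2. In the female-labelled libraries the order was Gbp3 (11.1 ± 2.1), Igtp (8.48 ± 0.60), Gbp2 (6.16 ± 0.60), Irgm1 (6.04 ± 0.31), Gbp7 (5.38 ± 0.33) and Gbp9 (4.53 ± 0.077). Gbp8, Gbp4, Gbp5 and Gbp6 followed, from 2.23 ± 0.56 down to 0.255 ± 0.096. The libraries overlapped between Gbp3 and Igtp, Gbp2 and Irgm1, Irgm1 and Gbp7, Gbp8 and Gbp4, and Gbp4 and Gbp5. Gbp9 ranked above Gbp7 in all male-labelled libraries and below it in all labelled female.

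Other interferon-inducible GTPases, of which 13 of 15 listed genes matched and 8 passed the filter, gave 4 lower and none higher by edgeR in the female-labelled libraries, with a median log2 change of -0.66. At an unadjusted p under 0.05 there were 6 lower and none higher by edgeR, DESeq2 and limma-voom. The dynamin-like Mx genes, antiviral GTPases that respond to type I interferon, changed most. Mx1 had 110.5, 109.6 and 114.6 CPM in the male-labelled libraries and 41.5, 37.3 and 41.6 CPM in the female-labelled ones. The groups were well separated, with a change of -1.47 (SE 0.067, adjusted p = 7.25e-12 by edgeR). Mx2 had a change of -1.51, from 26.3 ± 0.52 to 9.26 ± 0.57 CPM (SD, n = 3). Both estimates were larger than that of any member, although the 95% interval of Gbp6 includes them and the difference was not tested.

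Of the effector IRGs, Ifi47 and Tgtp2 were lower. Ifi47, also called Irgd, had 60.6, 56.5 and 57.6 CPM against 36.3, 39.1 and 35.7 CPM, a change of -0.65 (SE 0.073, adjusted p = 2.26e-06 by edgeR) close to that of Irgm1. Tgtp2 was lower by 0.62 on the log2 scale (adjusted p = 0.0247 by edgeR), a call that did not hold without male replicate 2 (adjusted p = 0.137 by edgeR), female replicate 1 (0.0508) or female replicate 2 (0.0846). Its transcripts share 76.8% of their 100-base stretches with Tgtp1, so their reads may not be separable. Iigp1 had 2.94, 2.97 and 3.51 CPM against 1.96, 2.17 and 1.09 CPM and missed the threshold (log2 -0.85, adjusted p = 0.0513 by edgeR, 0.0243 to 0.0481 with upper-quartile factors, limma-voom, no filter, the replicate block or without mitochondrially encoded genes, and 0.0545 to 0.169 with 1 library left out). Irgm2, the third regulatory IRG and a neighbour of Igtp, had a log2 change of -0.28 (95% interval -0.55 to -0.02, adjusted p = 0.142 by edgeR), which moved to -0.17 (0.486) or -0.20 (0.4) when male replicate 2 or female replicate 1 was left out, and to -0.36 (0.049) when female replicate 3 was. Gvin1, a very large interferon-inducible GTPase, had a change of 0.11 (95% interval -0.24 to 0.46), and -0.01 without male replicate 1. It shares 97.8% of its stretches with other genes. Of the remaining Gbp genes, Gbp10 next to Gbp6 had 33 counts over the male-labelled libraries and 11 over the female-labelled ones, Gbp11 had 13 and 8, and Gbp2b of chromosome 3 had 1 and 5, all too few to test.

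**Figure D3:**
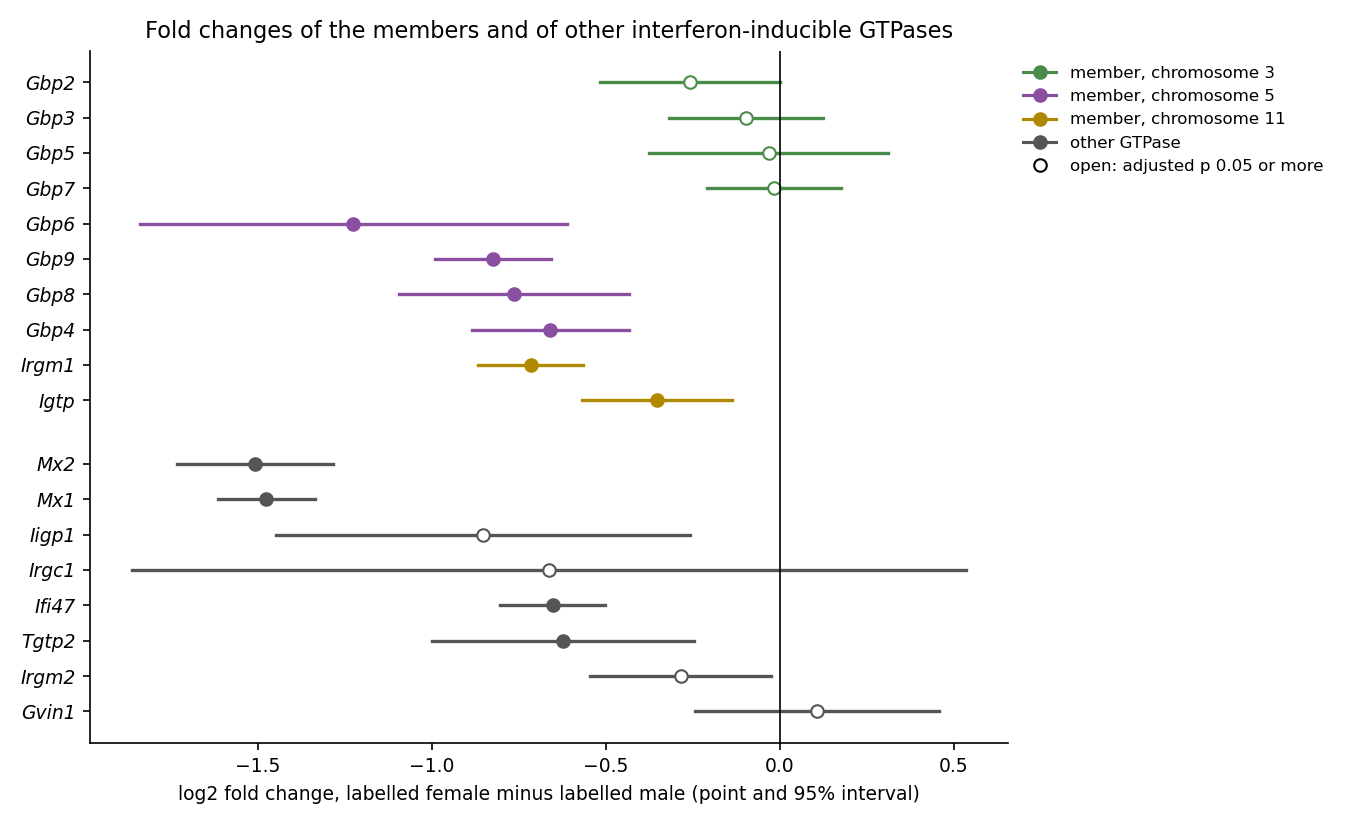
Log2 fold change of each member and of the 8 other interferon-inducible GTPases tested (x axis, labelled female minus labelled male), with the point estimate and its 95% interval. Filled points passed the threshold by edgeR and open ones did not; the 4 green intervals of chromosome 3 reach 0, while those of chromosomes 5 (purple) and 11 (gold) lie below it.

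Listed genes of interferon signalling were called lower more often than higher in the female-labelled libraries. Of 15 listed, 14 were tested, 5 were lower and 1 higher by edgeR, with a median log2 change of -0.16. Ligand transcripts were scarce. Ifng had 2.77, 6.96 and 3.99 CPM in the male-labelled libraries and 2.43, 3.88 and 2.48 CPM in the female-labelled ones, which overlapped (log2 -0.64, adjusted p = 0.156 by edgeR). The change was -0.20 (adjusted p = 0.732 by edgeR) without male replicate 2, the highest library, and ran to -0.90 (0.0506) without male replicate 1. Without the filter on low counts its adjusted p was 0.0446. Ifnb1 had 0 counts in every library, which allows at most 0.149 to 0.179 CPM, taking 3 counts as the limit and counting error only.

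Receptor genes did not pass the test. Ifngr1 had 288, 294 and 281 CPM against 313, 323 and 292 CPM, a change of 0.11 (95% interval -0.01 to 0.23) that passed at 0.15 without female replicate 3 (adjusted p = 0.0221 by edgeR). Ifngr2 had a change of 0.15 (95% interval 0.01 to 0.29, adjusted p = 0.162 by edgeR). Of the kinases, Jak1 was higher (log2 0.27, adjusted p = 0.00796 by edgeR), Tyk2 lower (-0.21, adjusted p = 0.0213) and Jak2 did not pass (-0.15, adjusted p = 0.11). The call of Jak1 was lost without male replicate 1 (adjusted p = 0.0723 by edgeR), and that of Tyk2 without male replicate 1, 2 or 3 or female replicate 2 (0.0661, 0.0726, 0.11 and 0.103).

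Among the transcription factors, Stat2, which acts with Irf9 downstream of type I interferon, changed most. It had 113, 109 and 120 CPM in the male-labelled libraries and 66.0, 58.8 and 65.5 CPM in the female-labelled ones (log2 -0.85, SE 0.067, adjusted p = 2.51e-08 by edgeR), a point estimate close to that of Gbp9. Irf1, the factor that carries much of the response to interferon gamma, had a change of -0.09 (95% interval -0.23 to 0.06), which moved to -0.03 (adjusted p = 0.853 by edgeR) without female replicate 1 and -0.17 (0.0463) without female replicate 3. Irf8 was lower by 0.30 and Irf9 by 0.31 on the log2 scale (adjusted p = 0.000818 and 0.00474 by edgeR). Socs1, the feedback inhibitor of the pathway, was lower by 0.84 (adjusted p = 0.00932 by edgeR). Without male replicate 1 the adjusted p was 0.051 for Irf9 and 0.0751 for Socs1, and the list held 2 lower genes. Without female replicate 3, 2 genes were higher.

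Genes whose products load, release or act beside the GTPases went both ways. Of 17 listed and tested, 5 were higher and 3 lower by edgeR, with a median log2 change of 0.08. The 5 higher genes, Atg3, Atg5, Atg7, Map1lc3b and Gabarap, were among 10 listed genes of the ubiquitin-like conjugation system of autophagy, which GBPs and IRGs need to reach their target membranes. Atg3 rose from 119.3 ± 5.6 to 156.8 ± 10.3 CPM (SD, n = 3; log2 0.39, adjusted p = 0.000233 by edgeR) and Atg5 from 44.4 ± 3.1 to 54.7 ± 0.51 CPM (log2 0.30, adjusted p = 0.00777). The call of Atg5 was lost without male replicate 2 (adjusted p = 0.0691 by edgeR), and the number of higher genes was 3, 2 and 2 without male replicate 1, 2 and 3, where Atg7, Map1lc3b and Gabarap each lost their call at least once. The 3 lower genes were among 5 listed genes of inflammasomes and their caspases and pore. Of the others, Casp1, the caspase that inflammasomes activate, had a log2 change of -0.07 (95% interval -0.21 to 0.07, adjusted p = 0.533 by edgeR), with overlapping groups. Nlrp3 fell from 137.1 ± 10.5 to 101.9 ± 1.8 CPM (log2 -0.43, adjusted p = 9.94e-05 by edgeR), and Aim2 had a log2 change of -0.29. Casp4, the mouse caspase-11 that senses lipopolysaccharide exposed by GBPs, had 89.9, 80.8 and 92.9 CPM against 61.2, 64.4 and 80.9 CPM. Female replicate 3 reached into the range of the male-labelled libraries, and the change was -0.35 (adjusted p = 0.00894 by edgeR), with the call lost without male replicate 1 (adjusted p = 0.0553), male replicate 3 (0.0762) or female replicate 2 (0.0505). Gsdmd, the pore-forming target of that caspase, had a change of -0.03 (95% interval -0.20 to 0.13), and 0.01 and 0.05 without male or female replicate 1.

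**Figure D4:**
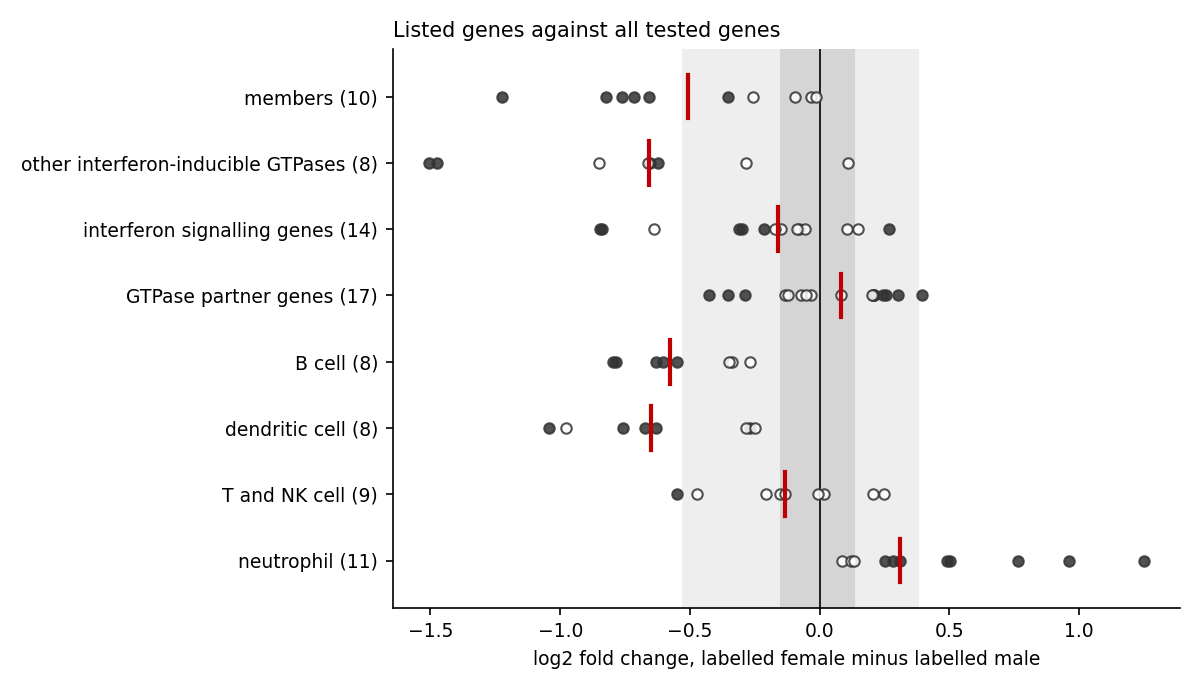
Log2 fold change (x axis, labelled female minus labelled male) of every tested gene of 8 lists, with the number tested in brackets, the list median as a red bar and called genes as filled points. The dark and light bands hold the middle of all tested genes, from the 25th to the 75th percentile (-0.15 to 0.13) and from the 5th to the 95th (-0.53 to 0.38); the medians of B cell and dendritic cell genes lie beside that of the members.

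Markers of other cell types did not all move with the members. Of the B cell markers, 5 of 8 were lower by edgeR and none was higher, and the same held for 5 of 8 dendritic cell markers. Their medians, -0.58 and -0.65 on the log2 scale, were close to the -0.51 of the members. Markers of T and NK cells, the main makers of interferon gamma (9 of 10 matched, 1 lower), summed to 144.9 to 169.6 CPM against 137.3 to 165.2 CPM, which overlapped. Nkg7 made up most of this sum, with a mean of 100.9 CPM against 100.5 CPM. The lower gene was Cd4 (log2 -0.55, adjusted p = 0.0112 by edgeR). Markers of monocytes and macrophages (9 of 9 tested, 2 higher and 1 lower) summed to 2136 to 2206 CPM against 2365 to 2414 CPM. The mean sum went from 2164 to 2383 CPM, a smaller rise than that of Ccr2 alone, from 613 to 879 CPM. Adgre1 was the other higher gene, and Fcgr1 was the lower one (log2 -0.70, adjusted p = 1.2e-05 by edgeR). The sum thus does not show a rise of these markers as a group. Endothelial and fibroblast markers (4 of 7 tested, none called by edgeR, DESeq2 or limma-voom, 2 lower at an unadjusted p under 0.05) summed to 68.1 to 72.3 CPM against 53.4 to 64.3 CPM, with Cldn5, Pdgfra and Dcn near 0. Mitochondrially encoded transcripts took 10.7% to 13.1% of counts in the male-labelled libraries and 6.42% to 8.49% in the female-labelled ones. The part of these transcripts in the levels of the GTPases was not tested. With mitochondrially encoded genes left out, the same number of members, 6, was lower.

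The genes outside the family whose profile over the 6 libraries was most like the mean standardized profile of the 10 members were Gpr171, Cdh1, Gnas, Pde7a, Lag3 and Pfkp. Their Pearson correlations with it ran from 0.986 to 0.991, the highest among 10542 genes, and are given as a description over 6 libraries that share the group difference. Gpr171 had 37.5 ± 1.9 CPM in the male-labelled libraries and 26.7 ± 2.8 CPM in the female-labelled ones (SD, n = 3; log2 -0.49, adjusted p = 0.000817 by edgeR). Cdh1 and Gnas were also lower (log2 -0.44 and -0.60), while Pde7a, Lag3 and Pfkp did not pass (adjusted p = 0.0574, 0.0969 and 0.0731 by edgeR). With genes under 10 CPM left out, Pde7a and Pfkp passed (0.0416 and 0.0386), as did Pde7a with upper-quartile factors (0.0463) or the replicate block (0.0441).

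The calls of the members held under most other ways of processing. Gbp4, Gbp8, Gbp9 and Irgm1 passed under all 14 alternatives, with adjusted p up to 0.00324, 0.018, 2.07e-05 and 3.27e-05. Gbp6 passed under 12 of the 13 in which it was tested and Igtp under 11 of 14. Gbp2, Gbp3, Gbp5 and Gbp7 passed under none, with the lowest adjusted p at 0.071 for Gbp2. The number of members called lower was between 4 and 6 over the 14 alternatives.

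**Figure D5:**
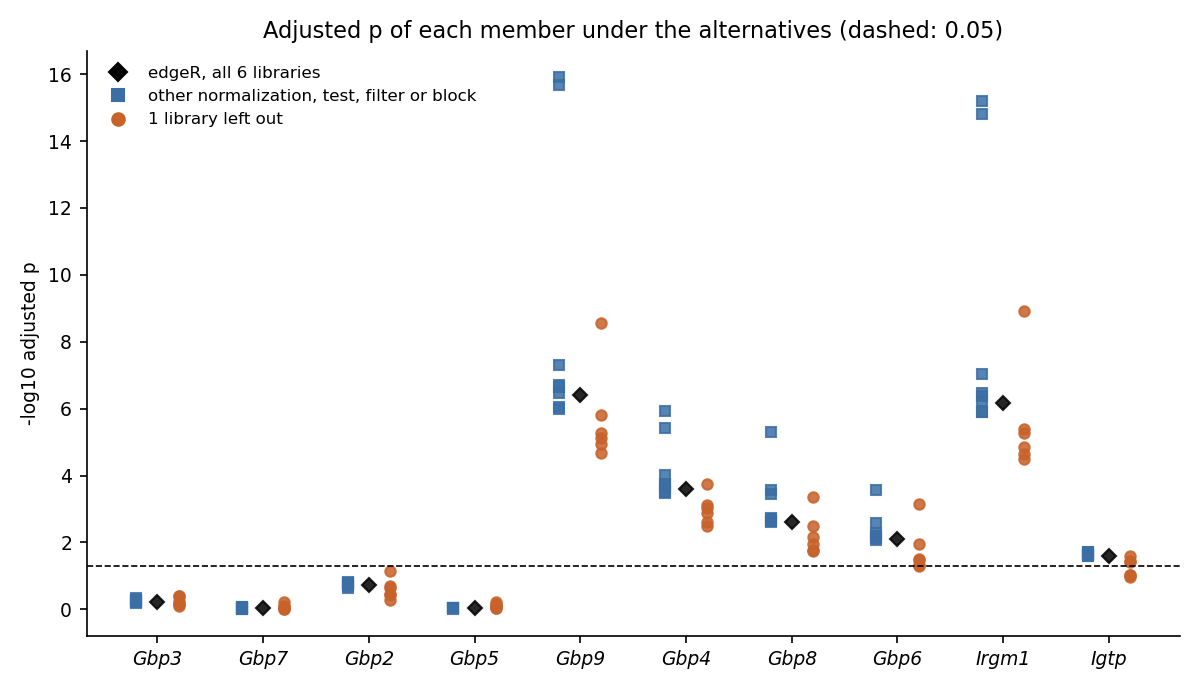
Adjusted p of each member as its negative log10 (y axis) with all 6 libraries (black diamonds), under another normalization, test, filter or block (blue squares) and with 1 library left out (orange circles). The dashed line marks 0.05; Gbp4, Gbp8, Gbp9 and Irgm1 lie above it throughout, and the 4 genes of chromosome 3 below it.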

How the data were processed

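Poly-A RNA of 6 libraries was sequenced on an Illumina NovaSeq after Trizol extraction, poly-T selection and random priming, per the labels' protocols, and no strand-marking step is described there. The tools cutadapt 1.15 and HISAT2 2.0.5 and the build GRCm39 are listed, without their roles, per the submitters' processing notes. A counting tool was not given in the sources used here. What the authors deposited are unnormalized counts of 21955 Ensembl genes. Symbols came from a GENCODE M21 table (GRCm38), which named 21847 of them. The 115 entries of the gene lists gave 111 matches. Gm12250, Iigp1b, Cxcr2 and Trac are not analysed here.

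The edgeR 4.0.16 quasi-likelihood test was run in R 4.3.3 (TMM, filterByExpr at a minimum of 10 counts, Benjamini-Hochberg adjustment over all 11903 genes, threshold 0.05), with the labelled group as the only term. Log2 fold changes are labelled female minus labelled male, SEs derive from the F statistic, and 95% intervals use the t distribution of the fit. DESeq2 1.42.0 and limma 3.58.1 (voom) were alternatives, besides other scalings and filters, a replicate block, libraries left out and mitochondrially encoded genes left out. The same alternatives were applied to the named genes outside the members, a step added after seeing the data. Simulated counts from these libraries gave calls for 70.7% of 99 genes changed 1.5-fold and 90.9% of 99 changed 2-fold, and for 0.0776% of 11600 unchanged genes. The changed genes were few and picked at random over all levels, so these rates need not hold for the members.

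Named genes were the members, the called genes with the largest change in each list (up to 6, or 4 of the partners), Irf1, Ifngr1, Ifngr2, Ifng, Jak2, Casp4 and Gsdmd, and the 6 genes most like the members. A further gene that the rule takes is not reported here. Irgm2, Iigp1, Gvin1, Casp1, Aim2, the other called partners, the untested Gbp genes and the overlapping Gm43302 fall outside this rule, and their values were known when they were chosen. The members and lists were chosen with earlier results of these data known. Within each group no library was a copy of another: same-group pairs had a chi-square of 4.1 to 16.5 per degree of freedom, with female replicate 3 farthest from its group (13.4 and 16.5). Pairs across the groups were not checked in this way.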

Additional observations from a re-analysis of the deposited data

How the results depend on the processing

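Over all genes, the number higher ran from 439 to 1439 and the number lower from 467 to 1269 when 1 library was left out, against 868 and 788 with all 6. For the interferon signalling genes the number higher ran from 0 to 2 and the number lower from 2 to 7, and for the partner genes the number higher ran from 2 to 6. Such fits use fewer libraries and so call less for a given spread. Log2 changes with 1 library left out ran from -1.552 to -1.005 for Gbp6, -0.41 to -0.312 for Igtp, -0.378 to -0.16 for Gbp2, -0.179 to 0.055 for Gbp3, -0.193 to 0.143 for Gbp5, -0.096 to 0.049 for Gbp7, -0.013 to 0.267 for Gvin1 and -0.132 to 0.045 for Gsdmd. Gbp6 missed the threshold without male replicate 2 (-1.086, adjusted p = 0.0509 by edgeR), and Igtp without male replicate 1 (-0.326), male replicate 2 (-0.323) or female replicate 2 (-0.336). The sign turned for Gbp3 without female replicate 3 (0.055), for Gbp5 without male replicate 2 (0.143), female replicate 1 (0.063) or female replicate 3 (0.027), for Gbp7 without male replicate 1 (0.007), male replicate 2 (0.049) or female replicate 3 (0.031), for Gvin1 without male replicate 1 (-0.013), and for Gsdmd without male replicate 1 (0.014) or female replicate 1 (0.045). The cause was not tested.

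With the replicate number as a block, 1007 genes were higher and 914 lower, and 6 members were lower, as without it. Whether the numbers pair the libraries is not stated, and correlations from 3 libraries a group cannot settle it. Same-numbered libraries had correlations of -0.039, 0.065 and 0.063 in their deviations from the group means, and not every library correlated best with its own number. Gbp5 and Gbp6 were not tested with the filter of 10 CPM in 3 libraries. Depth limits Gbp6 most, at 19 to 74 counts per library.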
